A study of Homo sapiens with 2 samples.

Results

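The genes described here repair or sense the DNA lesions made by dacarbazine (DTIC). They are MGMT, ALKBH2 and ALKBH3, which reverse alkylation directly, MPG and APEX1, which start base excision, and MSH3, MSH6 and PMS2 of mismatch repair. They were chosen by symbol from the deposited table, 8 of its 18930 genes, and all 8 had counts in both libraries and at least 10 reads over both. MGMT was the only member past a fold of 1.5, and it was lower in the DR-labelled library. At that fold 11.2% of all genes tested were called lower, so 1 of 8 is close to the background. The call was lost when biological variation was assumed at a coefficient of 0.2. MPG was higher in the DR-labelled library and APEX1 lower, both by less than 1.5-fold, and ALKBH2 and the mismatch repair members differed least.

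DTIC is activated in the body to a species that adds methyl groups to DNA bases. A methyl group on the oxygen of guanine makes the base pair with thymine, and the mismatch repair proteins bind this pair at the next round of replication and can send the cell toward death. MGMT takes that methyl group onto itself and is used up in doing so, whereas methylated ring nitrogens are handled by the ALKBH enzymes or by excision of the base. In melanoma and glioma, MGMT is known for its part in how cells withstand methylating drugs.

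The samples were 2 RNA-seq libraries, 1 labelled DR and 1 labelled WT, whose labels name A375, a line of human melanoma cells. The study describes the DR cells as A375 made resistant by exposure to rising DTIC and the WT cells as the wild-type control, while the labels give both libraries 105 days of the drug, so that the treatment of the WT cells is not certain. Each count column was assigned by a sample description that differs between the samples only by 1 punctuation mark, and every direction below rests on these descriptions. Both descriptions carry the letters BR, although the title of the WT-labelled sample has wt in that place. The column names therefore do not themselves show which library is wild type. With 1 library per label there is no replicate check, and each interval covers read counting only.

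The libraries held 54878310 reads (DR) and 35294629 reads (WT) after rounding, and 16210 genes were tested. The labelled cell type was checked against marker lists. Of the 13 melanocytic genes with counts, 1 in each library exceeded the median CPM of all genes tested, and it was MITF. Per kilobase of gene length MITF lay below the medians of all genes tested, at 3.64 against 6.46 (DR) and 3.66 against 6.40 (WT). Reads were almost absent for SOX10, with 3 in the DR-labelled library and 0 in the WT-labelled library, and TYRP1 had 0 and 17 reads. The summed level of the list was 47.6 CPM (reads scaled to a common library size, here by edgeR's TMM factors) in the DR-labelled library and 47.8 CPM in the WT-labelled library. The 13 plasma cell genes summed to 5428 and 6354 CPM, with JCHAIN most abundant. In each library 12 of 13 exceeded the median CPM of all genes tested. The 9 haematopoietic genes summed to 3140 and 1966 CPM. The keratinocyte list and the T cell and myeloid list summed to between 11.4 and 27.4 CPM. The fibroblast list summed to 14.1 CPM in the DR-labelled library and 3.18 CPM in the WT-labelled library. Both of its tested genes were called higher at 2-fold in the DR-labelled library, COL1A1 with 572 and 109 reads and PDGFRB with 209 and 1. The rest of that list was nearly or wholly absent, with 1 and 0 reads for COL1A2, 0 and 1 for COL3A1, and no counts for DCN and LUM. At 2-fold 4 of 13 plasma cell genes (30.8%) and 2 of 9 haematopoietic genes (22.2%) were also called higher, against 7.48% of all genes. From these 2 lists 0 were called lower at 2-fold, against 4.16% of all genes. At 1.5-fold 5 of 13 and 5 of 9 were called higher, against 15.1% of all genes. In each list 1 was called lower, against 11.2% of all genes, SDC1 at -0.62 and CD48 at -0.96 on the log2 scale. The melanocyte identity given by the labels is therefore not borne out by these markers, and the libraries are named by their labels only. The part of these marker levels in the differences below was not tested.

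The DNA just before the transcription start is shown for MGMT and MPG, the members with the largest differences in each direction. The capitals mark CG dinucleotides, the sites at which vertebrate promoters are methylated and at which the MGMT promoter is known to be silenced in tumours. Both are the 250 bases before the start in RefSeq, build GRCh38.p14, on the plus strand, MGMT at chr10:129466991-129467240 and MPG at chr16:77975-78224.
MGMT: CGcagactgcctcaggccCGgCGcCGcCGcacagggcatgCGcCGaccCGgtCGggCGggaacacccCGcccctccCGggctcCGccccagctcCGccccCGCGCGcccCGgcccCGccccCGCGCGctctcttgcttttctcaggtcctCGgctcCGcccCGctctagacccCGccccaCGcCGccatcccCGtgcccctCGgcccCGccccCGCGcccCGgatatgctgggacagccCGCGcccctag
MPG: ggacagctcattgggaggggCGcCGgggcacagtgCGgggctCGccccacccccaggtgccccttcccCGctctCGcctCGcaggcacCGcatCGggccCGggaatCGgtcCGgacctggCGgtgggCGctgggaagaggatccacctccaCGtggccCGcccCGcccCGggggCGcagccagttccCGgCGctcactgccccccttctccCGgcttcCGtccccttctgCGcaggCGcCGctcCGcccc

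The MGMT stretch holds 36 CG dinucleotides, more than 92.9% of the 12803 promoters of tested genes that RefSeq gave, whose median was 20. The MPG stretch holds 27. Across the 8 members, which all matched, the number ran from 16 (APEX1) to 36. The GC box, read as GGGCGG on either strand, occurred 8 times before MGMT and 3 times before MPG, and 62.7% of all these promoters hold it at least once. No methylation was measured in these data, and the sequences are given only for where the members' transcription starts.

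The first question was how abundant each repair transcript was. Levels of different genes were compared per length, as CPM per kilobase of the gene length in the table, with exact 95% Poisson intervals of the count. APEX1, the endonuclease that cuts the DNA strand at a site that has lost its base, was the most abundant member in both libraries, at 72.9 CPM per kilobase (71.1 to 74.7) in the DR-labelled library and 89.5 (87.0 to 92.1) in the WT-labelled library. MPG, the glycosylase that cuts methylated purines out of DNA, and MSH6, the subunit that recognises base mismatches, came next. MPG stood at 51.5 CPM per kilobase (49.7 to 53.3) in the DR-labelled library and at 38.6 (36.6 to 40.6) in the WT-labelled library. MSH6 stood at 43.2 (42.4 to 44.1) and 45.4 (44.3 to 46.5), so that MPG was above MSH6 in the DR-labelled library and below it in the WT-labelled library.

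ALKBH2, which removes methyl groups from ring nitrogens in double-stranded DNA, had 19.2 CPM per kilobase (18.1 to 20.3) in the DR-labelled library and 18.5 (17.2 to 19.9) in the WT-labelled library. PMS2, the endonuclease subunit that nicks DNA after a mismatch is bound, had 17.2 (16.8 to 17.7) and 15.8 (15.2 to 16.4). ALKBH3, which acts preferentially on single-stranded DNA, had 10.6 (9.95 to 11.3) and 12.2 (11.3 to 13.1). MSH3, the subunit for longer insertion and deletion loops, was at 6.79 (6.47 to 7.12) and 6.53 (6.13 to 6.94), close to the medians of 6.46 and 6.40 CPM per kilobase over all genes tested. MGMT was at 6.54 (5.89 to 7.24) in the DR-labelled library, where it lay last and its interval overlapped that of MSH3, and at 12.4 (11.3 to 13.6) in the WT-labelled library, where its interval overlapped that of ALKBH3. These were the only neighbours in either order whose intervals overlapped. By level MGMT lay at percentile 50.2 of the genes tested in the DR-labelled library and 63.8 in the WT-labelled library, whereas APEX1 lay at percentiles 93.9 and 94.9.

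**Figure D1:**
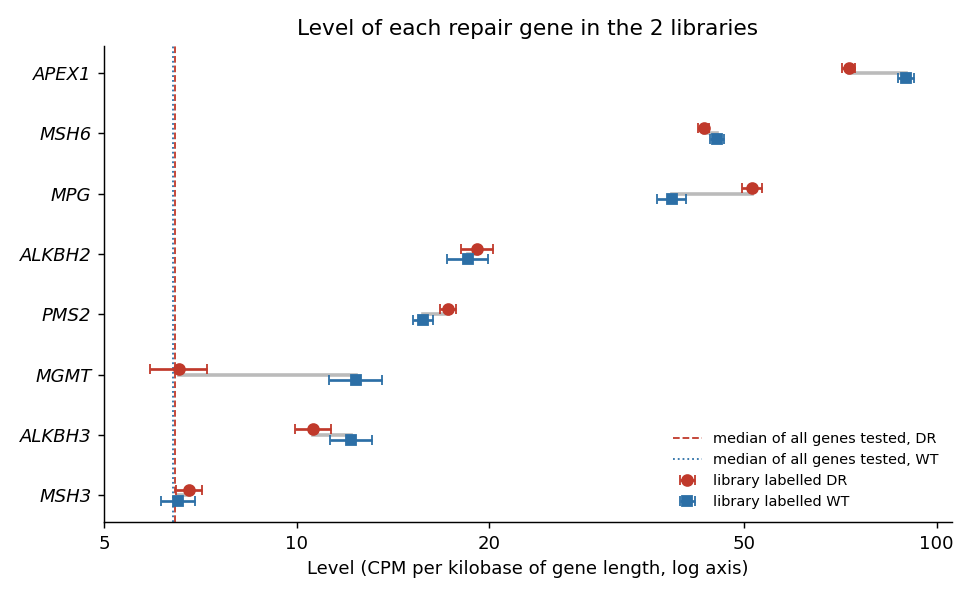
Level of each member in CPM per kilobase of gene length (log axis) in the DR-labelled library (circles) and the WT-labelled library (squares), with exact 95% Poisson intervals as bars and the medians of all genes tested as vertical lines. MGMT lies near the median in the DR-labelled library, at 6.54, and at 12.4 in the WT-labelled library.

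The second question was which members differed between the libraries. Log2 fold changes are of CPM with a pseudocount of 0.5 CPM, the DR-labelled library relative to the WT-labelled library, and their 95% Clopper-Pearson intervals come from the reads without a pseudocount. A gene was called when an exact binomial test of its reads gave a Benjamini-Hochberg adjusted p under 0.05 over all genes tested and its fold was at least 2, or at least 1.5 by a looser rule. This test compares the 2 libraries, not the conditions. At 2-fold, 0 of 8 members were called in either direction, against 7.48% of all genes called higher and 4.16% called lower in the DR-labelled library. At 1.5-fold, 0 of 8 were called higher, against 15.1% of all genes, and 1 of 8 was called lower, against 11.2% of all genes. A count of 1 is close to what the background gives for 8 genes. The median log2 fold change of the members was -0.01, against 0.01 over all genes tested, with 4 members above 0 and 4 below.

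**Figure D2:**
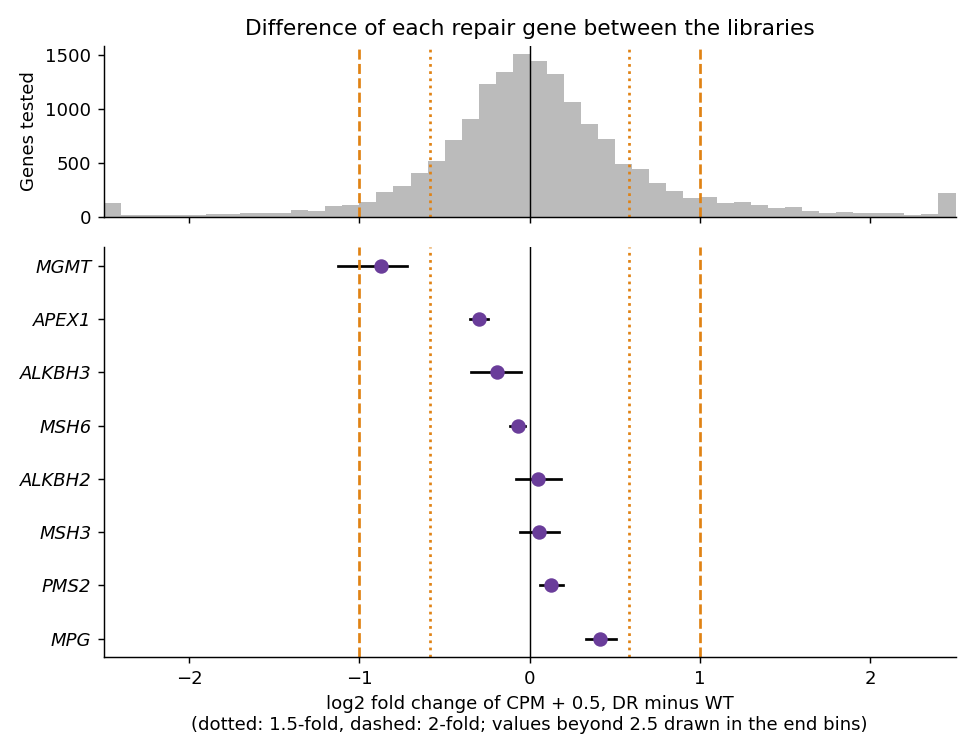
Upper panel, log2 fold changes of all 16210 genes tested in bins. Lower panel, the 8 members, with points for the log2 fold change of CPM + 0.5 and bars for 95% Clopper-Pearson intervals; dotted and dashed lines mark folds of 1.5 and 2. MGMT, at -0.87, lies beyond the 1.5-fold line and the other members lie between 0.41 and -0.30.

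Among the genes of direct reversal, MGMT (NCBI Gene 4255) had 372 reads in the DR-labelled library and 442 in the WT-labelled library, although the former was sequenced more deeply. In bulk RNA, fewer cells expressing a gene and less RNA per cell cannot be told apart. After scaling this was 6.70 and 12.7 CPM, a log2 fold change of -0.87 (-1.12 to -0.72). With the pseudocount, MGMT was thus 1.83-fold lower in the DR-labelled library, past 1.5-fold and short of 2-fold. Its interval, taken without the pseudocount, includes 2-fold. By log2 fold change MGMT lay at percentile 5.32 of the genes tested. ALKBH2 had 1223 and 741 reads, 22.0 and 21.3 CPM, a log2 fold change of 0.05 (-0.08 to 0.18) whose interval includes 0. ALKBH3 had 935 and 673 reads, 16.8 and 19.3 CPM, and a log2 fold change of -0.19 (-0.34 to -0.05). The interval of MGMT lay apart from those of both ALKBH genes. By read counting alone, the transcripts of the 3 direct reversal enzymes thus did not differ between the libraries by the same amount.

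The call of MGMT rests on the assumed spread. In edgeR's exact test, when biological variation was assumed at a coefficient of 0.1, its adjusted p was 4.40e-04, and with 0.2 it was 0.192 (0.0312 without adjustment). The true spread between cultures is not known from 1 library per label.

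Among the base excision genes, MPG had 3148 reads in the DR-labelled library and 1479 in the WT-labelled library, 56.7 and 42.4 CPM. The log2 fold change was 0.41 (0.33 to 0.51), 1.33-fold higher and under both fold rules. APEX1 had 6288 and 4848 reads, 113 and 139 CPM, and a log2 fold change of -0.30 (-0.35 to -0.24), 1.23-fold lower. The glycosylase and the endonuclease that acts on its product lay on opposite sides of 0, with counting intervals that lay apart. In edgeR's exact test at an assumed coefficient of 0.1, the adjusted p was 0.126 for MPG and 0.307 for APEX1, so neither passed the threshold there.

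The mismatch repair members were close to equal. MSH6 had 10139 and 6682 reads, 182 and 192 CPM, and a log2 fold change of -0.07 (-0.12 to -0.03). MSH3 had 1687 and 1018 reads, 30.4 and 29.2 CPM, and a log2 fold change of 0.06 (-0.06 to 0.17). PMS2 had 4884 and 2804 reads, 87.9 and 80.4 CPM, and a log2 fold change of 0.13 (0.06 to 0.20). All 3 intervals lay within 0.20 of zero on the log2 scale. RefSeq lists 15 pseudogene copies of PMS2, of which 0 had counts in the table, and reads of those copies may have been assigned to it. MPG overlaps NPRL3, MSH6 overlaps FBXO11 and APEX1 overlaps TMEM55B (PIP4P1 in RefSeq), and the strand setting of the counting is not given in the sources used here, so reads of these pairs may not be told apart.

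Ratios of 2 members within a library do not depend on how the libraries were scaled. MSH6 and MSH3 compete for the same partner subunit, and MSH6 had 6.37 times the reads per length of MSH3 in the DR-labelled library (95% Clopper-Pearson interval 6.05 to 6.71) and 6.96 times in the WT-labelled library (6.51 to 7.44). The ratio of these ratios, DR over WT, was 0.916 (exact conditional 95% interval 0.841 to 0.996). ALKBH3 over ALKBH2 was 0.554 (0.508 to 0.604) and 0.658 (0.592 to 0.732), with a ratio of ratios of 0.842 (0.734 to 0.965). Both pairs thus kept their order, ALKBH2 above ALKBH3 and MSH6 above MSH3, and their ratios differed little.

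The ratios across enzymes differed more. APEX1 over MPG was 1.41 (1.36 to 1.48) in the DR-labelled library and 2.32 (2.19 to 2.46) in the WT-labelled library, a ratio of ratios of 0.609 (0.566 to 0.655). MGMT over MPG was 0.127 (0.114 to 0.141) in the DR-labelled library and 0.321 (0.288 to 0.357) in the WT-labelled library. Relative to MPG, the reads of MGMT were thus 2.53-fold fewer in the DR-labelled library (2.17 to 2.95). MGMT and MPG had the largest differences in each direction, so this ratio joins both, and neither gene was called at 2-fold by itself.

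**Figure D3:**
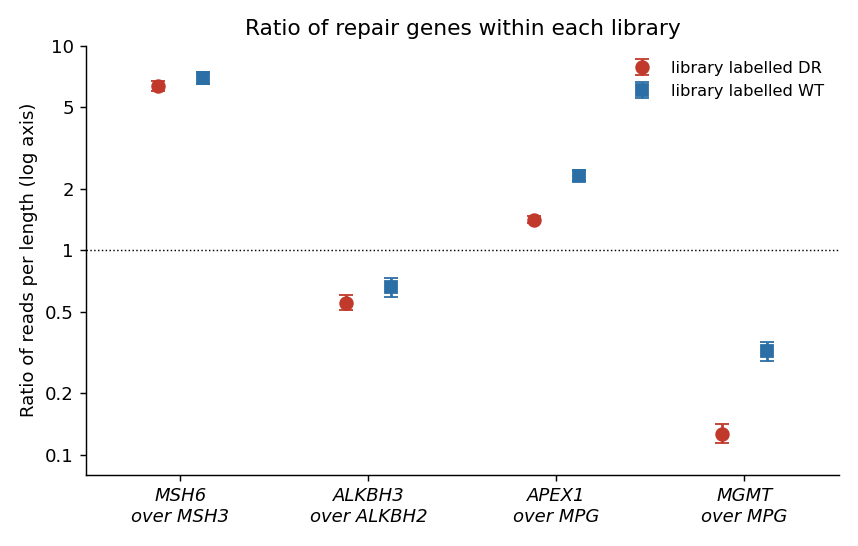
Ratio of reads per length of 2 members within each library (log axis), for the DR-labelled library (circles) and the WT-labelled library (squares), with 95% Clopper-Pearson intervals. MSH6 over MSH3 is 6.37 and 6.96, while MGMT over MPG is 0.127 and 0.321.

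The other genes of the same repair steps were taken from 5 lists of 53 genes in all, the members included, and all were tested. At 2-fold, 1 of 53 was called higher and 0 lower in the DR-labelled library, against 7.48% and 4.16% of all genes. At 1.5-fold, 1 was called higher and 6 lower, which is 1.89% and 11.3% of the lists against 15.1% and 11.2% of all genes. The median log2 fold change of the 53 was -0.04. For the 7 genes of direct reversal the median was -0.16, with MGMT alone called. ASCC3, the helicase that works with ALKBH3, was at -0.45 (-0.52 to -0.39), and ASCC1, ASCC2 and ALKBH1 lay between -0.16 and 0.05.

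Of the 10 DNA glycosylases, which each cut out particular damaged bases, 1 was called higher and 2 lower at 1.5-fold. The shares over all genes were 15.1% and 11.2%, and the median of the glycosylases was 0.22. NEIL1, which removes oxidised bases, had 848 and 247 reads and a log2 fold change of 1.06 (0.90 to 1.32), the only pathway gene past 2-fold. That call was lost with a pseudocount of 5 CPM, and all 7 calls at 1.5-fold were lost with an assumed coefficient of variation of 0.2. NEIL3, another glycosylase for oxidised bases and crosslinks, had 982 and 1142 reads and stood at -0.87 (-1.01 to -0.77). TDG, which removes thymine opposite guanine, had 2546 and 2579 reads and stood at -0.69 (-0.77 to -0.61). In the plane of the levels of both libraries, NEIL3 was also the list gene nearest to MGMT, with 7.62 and 14.1 CPM per kilobase against 6.54 and 12.4 (2 libraries, distance 0.277 on the log2 scale). NTHL1 was at 0.47 and UNG at 0.30, on the same side as MPG and under both fold rules.

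For abasic site cleavage, gap filling and ligation, 0 of 15 genes were called higher and 2 lower at 1.5-fold. The 2 were 13.3% of the list, near the 11.2% of all genes, and the median was -0.13. LIG3, the ligase that seals the gap with XRCC1, had 4216 reads in the DR-labelled library and 5068 in the WT-labelled library, a log2 fold change of -0.93 (-0.997 to -0.879). HMGB1, a chromatin protein that also takes part in base excision and mismatch repair, had 24835 and 27084 reads and stood at -0.80 (-0.82 to -0.77). POLB, the gap-filling polymerase, was at -0.18 (-0.35 to -0.02) and was the list gene nearest to ALKBH3. XRCC1 was at -0.13, and PARP1, the sensor of strand breaks, had 1141 and 1172 CPM and was at -0.04.

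Of the 7 mismatch recognition genes 0 were called at 1.5-fold, against 15.1% of all genes called higher and 11.2% called lower. Their median was -0.06. PMS1 was at 0.01 and MLH3 at -0.25, and MSH4, a meiotic gene, had 8 and 6 reads. For excision and resynthesis 0 of 16 genes were called higher, with a median of -0.04, and 2 were called lower, 12.5% against 11.2% of all genes. These were HMGB1, which is also in the list above, and RFC5, a subunit of the clamp loader, with 2685 and 2692 reads and a log2 fold change of -0.67 (-0.75 to -0.60). EXO1, the exonuclease that removes the strand carrying the mismatch, was at -0.24 (-0.30 to -0.17), and PCNA, the sliding clamp, was at -0.01 (-0.05 to 0.02).

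Because the mismatch repair and ligation genes are used at replication, 14 genes of replication and the cell cycle were measured beside them. At 1.5-fold 0 of 14 were called, against 15.1% of all genes called higher and 11.2% called lower, and their median log2 fold change was -0.13, with 11 below 0. MKI67, the proliferation marker, was at -0.37, and MCM7, a helicase subunit, was at 0.40. Their part in the differences of the repair genes was not tested.

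**Figure D4:**
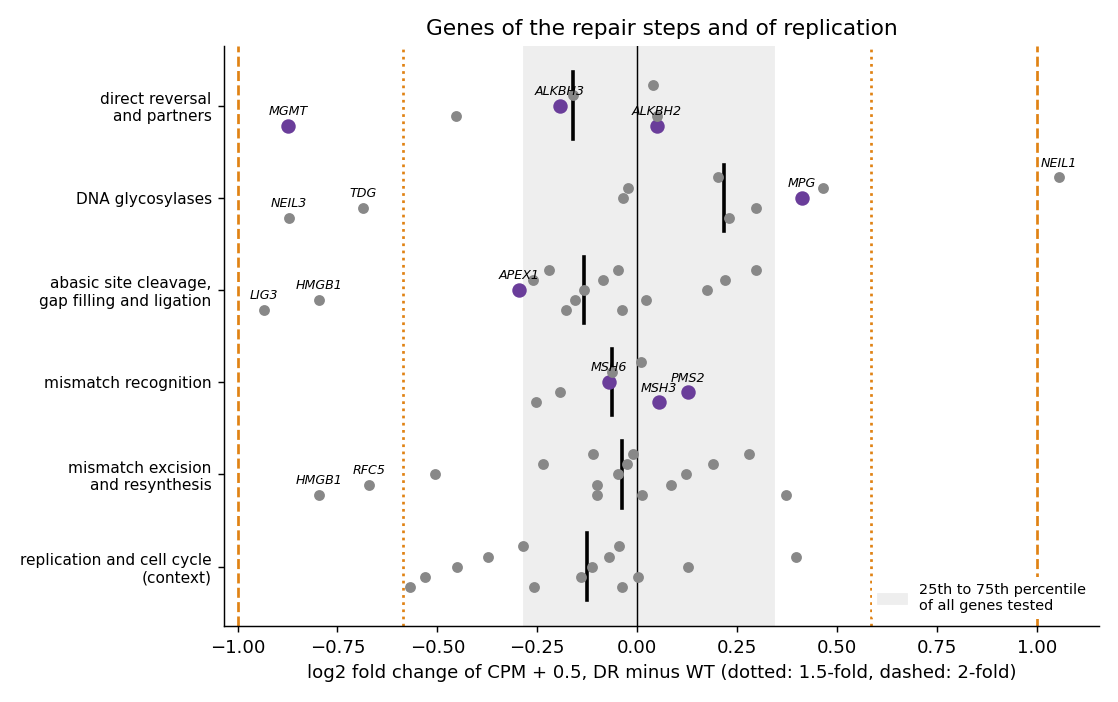
Log2 fold changes of the genes of the 5 repair lists and of the replication list, each point 1 gene, with the 8 members in purple, list medians as black bars, the 25th to 75th percentile of all genes tested as a grey band (-0.28 to 0.34), and folds of 1.5 and 2 as dotted and dashed lines. NEIL1 lies beyond 2-fold, and MGMT, NEIL3, TDG, LIG3, HMGB1 and RFC5 lie beyond 1.5-fold on the lower side.

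Genes next to the members were read for comparison, as the nearest tested coding gene on each side in the RefSeq order. Of the 15 neighbours reported 3 were called higher at 2-fold and 0 lower, against 7.48% and 4.16% of all genes. The count at 1.5-fold was the same, against 15.1% and 11.2%, so it was near the background there. EBF3, a transcription factor gene on 1 side of MGMT, had 78 reads in the DR-labelled library and 0 in the WT-labelled library. Set against a floor of 3 reads in the WT-labelled library, EBF3 was 16.3-fold higher, while its counting interval begins lower, at 3.70 on the log2 scale. MKI67, on the other side of MGMT, was at -0.37 (-0.40 to -0.35). KCNK12, a potassium channel gene beside MSH6, had 407 and 77 reads and stood at 1.53 (1.38 to 2.10). RHBDF1, which faces MPG head to head with 5594 bases between the starts, had 227 and 57 reads and stood at 1.10 (0.90 to 1.77), on the same side as MPG.

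Of the head-to-head pairs reported here whose starts the RefSeq promoter table gave, 2 lay closest. OSGEP, 414 bases from APEX1, was at 0.17 (0.02 to 0.33), whereas APEX1 was at -0.30, and their intervals lay apart. AIMP2, 166 bases from PMS2, was at -0.01 (-0.11 to 0.09), and its interval overlapped that of PMS2. UNG, which faces ALKBH2 with 4125 bases between the starts, was at 0.30 (0.23 to 0.37) with ALKBH2 at 0.05.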

How the data were processed

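RNA sequencing of 1 library labelled DR and 1 labelled WT was analysed. The authors deposited 1 table of 18930 genes with estimated counts per gene that are not scaled to depth, fractional for 9108 of the 18267 genes with counts, and with the gene length and annotation. The submitters' processing notes name Bowtie 0.12.2 and hg19; the counting tool and strand setting are not given in the sources used here. A log2 ratio with its p-value and q-value, the authors' comparison, also stands in the deposited table and was not used. By its heading it divides the column used here as WT by the column used here as DR.

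Counts were rounded, scaled by TMM (edgeR 4.0.16, R 4.3.3; factors 1.01 and 0.988) and compared by a two-sided exact binomial test, adjusted by Benjamini-Hochberg over all genes tested (Python 3.11.15, SciPy 1.17.1), leaving out 2057 genes under 10 reads. The quasi-likelihood test of edgeR has no residual degrees of freedom with 1 library per label. Reads carry no molecular identifiers, so intervals cover counting error only. The test was checked on counts simulated without any spread beyond read sampling, so that check does not cover the spread between cultures. RefSeq names matched 15962 of the 16210 genes tested; its build differs from hg19, so it served for neighbours and promoter sequence only; 1 neighbour is not reported here. DESeq2 1.42.0 size factors, other pseudocounts, filters and assumed spreads were alternatives. The named genes were the members, list genes past either fold, the nearest list gene and neighbours; other list genes were named after their values were seen. The members and lists were chosen with earlier results of these data known.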

Additional observations from a re-analysis of the deposited data

How the results depend on the processing

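No paired analysis was possible because each label has 1 library, which also leaves no replicate to drop. The 8 members kept their direction under the 3 other scalings, MSH6 between -0.08 and -0.03. A pseudocount changes the size of a fold only, and MGMT ran from -0.91 to -0.60 over both. The call of MGMT at 1.5-fold (-0.87) was lost with assumed coefficients of variation of 0.2 (adjusted p = 0.192) and 0.4 (adjusted p = 1), where edgeR's exact test called 0 members; with 0.4 the p of MGMT without adjustment was 0.276. At these settings 0 of the 53 pathway genes were called at 1.5-fold or at 2-fold. These tests assume a spread beyond read sampling, which is all the binomial test covers. A pseudocount of 5 CPM, which shrinks the folds of low genes, left 0 pathway genes past 2-fold, since NEIL1 dropped out.

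Over all genes, 1212 were higher and 674 lower at 2-fold. The pseudocount of 5 CPM gave 423 and 333, and the coefficient of 0.4 gave 304 and 144. At 1.5-fold 2444 were higher and 1808 lower, against 1197 and 1060 with the pseudocount of 5 CPM, 1164 and 614 with a coefficient of 0.2, and 311 and 146 with 0.4. The median of all genes moved by at most 0.030 under any scaling. Without the members the median of mismatch recognition went from -0.06 to -0.13 and that of direct reversal from -0.16 to -0.06. Percentiles by level moved for every member without length or with at least 50 reads, since the former ranks by another measure and the latter leaves out low genes. MGMT went from 50.2 and 63.8 to 34.5 and 42.9 without length, and to 44.0 and 59.3 with at least 50 reads. Adding the copies of PMS2 was not run, since 0 of them had counts. Unrounded counts left the ratios within their intervals.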
